A study of Mus musculus with 16 samples.

Results

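The comparison concerned 4 of the 16 arrays of the series: 2 arrays of VE-Cadherin+/CD45+(P4) cells against 2 arrays of VE-Cadherin+/CD45-(P3) cells, all sorted by flow cytometry from the yolk sac (YS) of control mouse embryos at E11.5 and chosen by the sample titles. The animals were of mixed strain (B6/CBA and others), and the labels give the control genotype no further detail. RNA of each sample was hybridised to an Agilent 1-colour array. Used beside them were 4 arrays of the same gates from the body of control embryos (the embryo proper), and 4 from Tie-2-Etv2 yolk sac, in which an Etv2 transgene was turned on by a Tie-2 Cre transgene and so in the cells where the Tie-2 promoter is active. Nothing in the labels ties the 2 samples of a gate to different litters, embryos or sorts, nor says how many embryos were pooled. The p-values therefore measure only the spread between samples of a group, pooled over the 8 groups of all 16 arrays, and that spread may be technical.

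The yolk sac is the first site of blood formation in the mouse embryo: its vascular wall holds hemogenic endothelium, from which erythro-myeloid progenitors and, in turn, the first macrophages arise. VE-cadherin, encoded by Cdh5, is the adhesion protein of endothelial junctions, and CD45, encoded by Ptprc, is a phosphatase on the surface of nucleated blood cells other than the erythroid lineage. Cells that carry both are often described as blood cells that have newly left the endothelium. Yolk sac macrophages are known to seed tissue macrophages, the microglia of the brain among them.

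A level is the log2 of the array's background-corrected signal minus the 75th percentile of that array. A difference is the level in CD45+ minus CD45- cells on the log2 scale, with the standard error (SE) of limma's fit over all 16 arrays. A gene passed the test, and is said to be higher or lower, at a two-sided adjusted p under 0.05. Of 24578 genes tested 5555 were higher in CD45+ cells (22.6%) and 3878 were lower (15.8%). The median difference of all genes was 0.20, and that zero point moved with the scaling of the arrays: it was 0.015 after quantile normalization and −0.069 when arrays were scaled on detected probes. Fitted on the 4 arrays alone, 3793 genes were higher and 3387 lower. The split was 4603 higher and 4625 lower with quantile normalization, and 3952 and 5057 with detected-probe scaling. On the 4 arrays 51.8% to 57.3% of spots were well above background. The CD45- arrays correlated at 0.992 and the CD45+ arrays at 0.975 across genes, which are not independent replicates. CD45- arrays lay in the first column of the yolk sac slide and CD45+ arrays in the second, so the gate cannot be told apart from the column of the slide. Nor, in a bulk sample, can fewer cells of a type and less RNA per cell be told apart.

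The genes of both sorting proteins were read first. Ptprc stood at −4.86 and −5.13 on the CD45- arrays, not well above background on either, and at 3.28 and 3.41 on the CD45+ arrays. Its rise in CD45+ cells was at least 306-fold (adjusted p = 1.6e-08). A bound sets the mean of the bright gate against the mean of the dim arrays. Each dim array enters at its own level or, if higher, at the lowest signal that counted there as well above background. Cdh5 stood at 5.99 and 5.52 on the CD45- arrays and at −0.44 and −0.08 on the CD45+ arrays. Both gates are labelled VE-Cadherin+, yet the groups did not overlap and the Cdh5 transcript was 64.6-fold lower in CD45+ cells (adjusted p = 1.64e-07), though still well above background on both arrays. The CD45 transcript thus followed the sort, and the VE-cadherin transcript was measured in both gates at unequal levels.

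The arrays read each gene through a probe of 60 bases, and 3 such probes are shown because they carry the contrast between the gates. They are those of Ptprc, of Emcn, which encodes the endothelial sialomucin endomucin, and of C1qb, which encodes a chain of the complement component C1q made by macrophages. Their positions on mm9, the build of the files, are chr1:139961083-139961142 on the minus strand, chr3:137086389-137086448 on the plus strand and chr4:136436578-136436637 on the minus strand.
Ptprc probe: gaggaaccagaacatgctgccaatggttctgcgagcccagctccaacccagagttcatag
Emcn probe: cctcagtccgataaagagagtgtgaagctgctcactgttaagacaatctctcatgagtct
C1qb probe: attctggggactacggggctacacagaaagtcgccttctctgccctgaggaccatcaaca
The Emcn probe read 4.93 and 5.07 on the CD45- arrays and −2.98 and −2.63 on the CD45+ arrays. The C1qb probe read −2.45 and −3.02 on the CD45- arrays and 7.59 and 6.92 on the CD45+ arrays. These probes thus moved in opposite directions, Emcn by −7.81 ± 0.25 and C1qb by 9.99 ± 0.42 (adjusted p = 9.09e-09 and 4.5e-08).

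**Figure D1:**
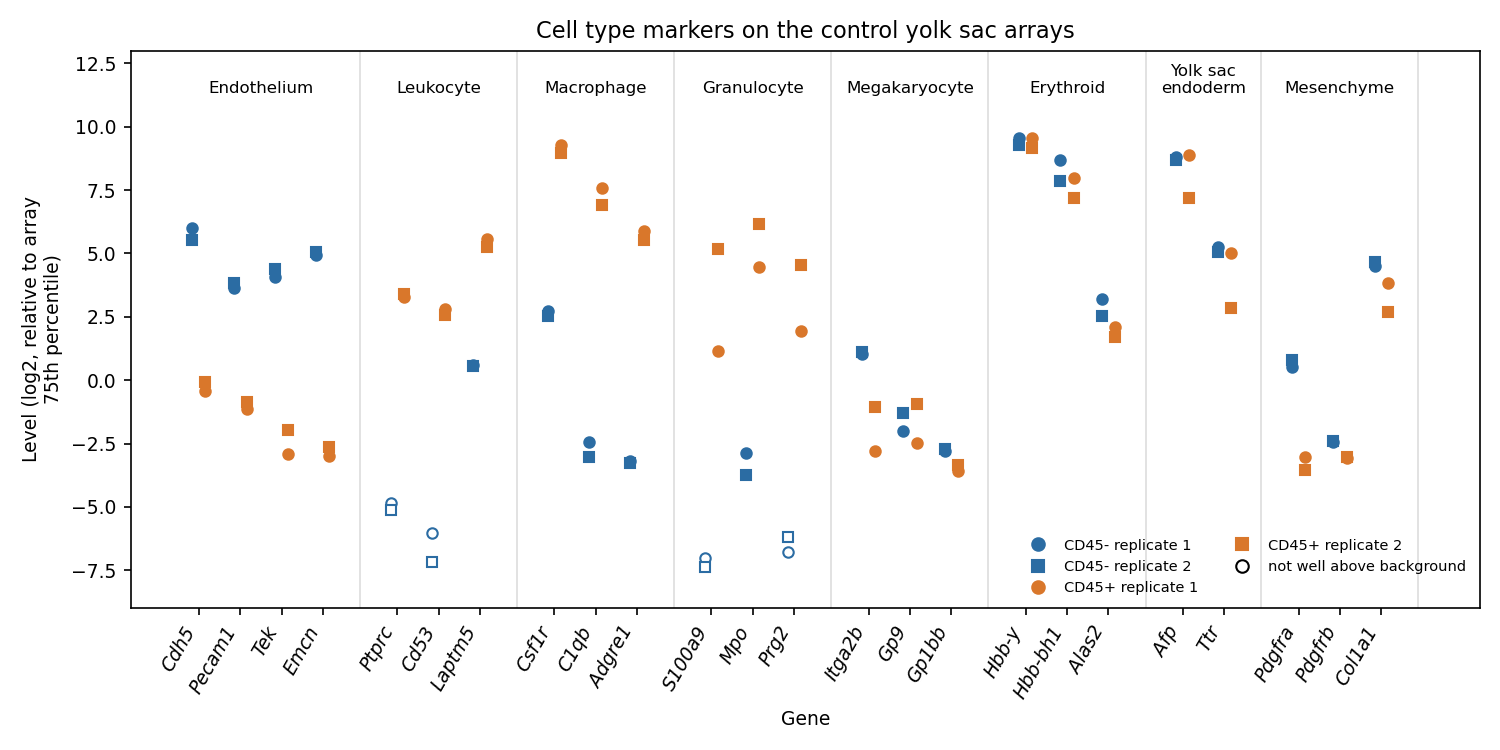
Levels (log2, relative to each array's 75th percentile) of chosen markers of 8 cell types on the 4 control yolk sac arrays. Not every defining marker is drawn. Kdr is left out of the endothelial set. The granulocyte genes S100a9, Mpo and Prg2 stand in place of the defining neutrophil markers Elane, Ltf and S100a8, of which Elane and Ltf did not pass the test. CD45- arrays are in blue and CD45+ arrays in orange, with circles for replicate 1 and squares for replicate 2. Both symbols of a gate are open unless the probe was well above background on both of its arrays. Endothelial markers sit higher on the CD45- arrays and leukocyte and macrophage markers higher on the CD45+ arrays, while the globin levels of both gates lie close together and the endoderm markers are lower on CD45+ replicate 2 than on the other 3 arrays.

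Among genes well above background on all 4 arrays, the largest rises included macrophage genes and the largest falls included endothelial genes. F13a1, which encodes the catalytic subunit of coagulation factor XIII and is carried by macrophages and platelets, stood at −3.05 and −3.56 on the CD45- arrays and at 8.99 and 8.46 on the CD45+ arrays. It was 4182-fold higher in CD45+ cells on its brightest probe (difference 12.03 ± 0.29, adjusted p = 2.17e-09). A dimmer probe of F13a1, well above background on 1 CD45- array, differed by 8.41. Next by size were Aif1, the calcium-binding protein IBA1 used as a macrophage and microglia stain, at 11.23 ± 0.46, C1qb, and the unconventional myosin gene Myo1f at 9.80 ± 0.35. Fcrls, an Fc receptor-like gene of microglia, differed by 9.76 ± 0.27, the folate receptor gene Folr2 of resident macrophages by 9.60 ± 0.73, the blood cell GTPase gene Rac2 by 9.59 ± 0.27 and the monocyte chemokine gene Ccl2 by 9.58 ± 0.96.
The largest fall among these genes was that of Gkn2, a gastrokine gene, at 6.62 and 6.90 on the CD45- arrays and −2.76 and −2.43 on the CD45+ arrays. It was 655-fold lower (difference −9.35 ± 0.93, adjusted p = 2.04e-05). Esm1, an endothelial proteoglycan gene induced by VEGF, differed by −8.90 ± 0.84, the protocadherin gene Pcdh17 by −8.34 ± 0.60, the laminin chain gene Lama4 by −8.14 ± 0.38 and the adhesion ligand gene Madcam1 by −7.97 ± 0.22. Plvap, which encodes the diaphragm protein of endothelial fenestrae, differed by −7.95 ± 0.25. The receptor gene Gpr182 differed by −7.88 ± 0.59 and the tight junction gene Cldn5 by −7.85 ± 0.32.

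Genes seen in 1 gate alone, and not well above background on either array of the other, numbered 503 among the genes called higher and 888 among those called lower. A probe above background in only 1 group was enough for a gene to be tested. One kept only through the gate where it is high therefore had to differ, which limits what these counts and p-values show. With the largest bounds in CD45+ cells were C1qc, at least 7011-fold higher, the fractalkine receptor gene Cx3cr1, at least 5800.4-fold, and the chemokine genes Ccl4 and Ccl3, at least 4687-fold and 4290.2-fold. They were followed by the cysteine protease gene Ctss at 3889-fold or more, the lipopolysaccharide co-receptor gene Ly86 at 3576-fold or more, the interferon-inducible gene Ifi207 at 3416-fold or more and C1qa at 3283-fold or more. C1qc stood at −6.25 and −6.21 on the CD45- arrays and 7.89 and 7.21 on the CD45+ arrays, so both arrays of a gate lay close together.
In the other direction the bounds were smaller. The trefoil peptide gene Tff1 was at least 794-fold lower in CD45+ cells, the mucin-like gene Mucl3 at least 462-fold, the cytoskeletal regulator gene Crmp1 at least 239.8-fold and the junction gene Tmem204 at least 231-fold. The endothelial transcription factor gene Sox7 was at least 218-fold lower, Ebf3 at least 129.9-fold, Hrct1 at least 128-fold and the T-box gene Tbx1 at least 128-fold. Tff1 stood at 5.41 and 5.09 on the CD45- arrays. It had an adjusted p of 0.000358, against 1.01e-07 for Mucl3.

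**Figure D2:**
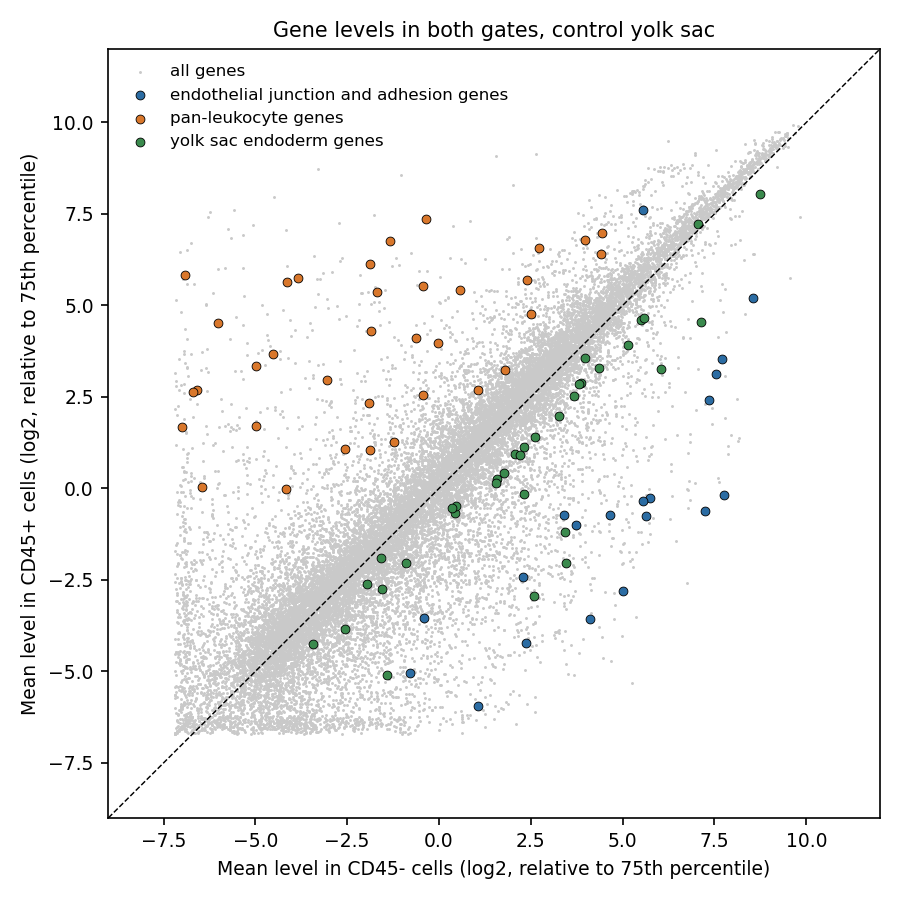
Mean level of each of the 24578 genes in CD45- cells (horizontal axis) and CD45+ cells (vertical axis) of the control yolk sac, log2 relative to each array's 75th percentile, with 2 arrays per gate. Coloured points are the genes of 3 lists: endothelial junction and adhesion genes lie below the line of equal levels except Mcam, pan-leukocyte genes lie above it, and yolk sac endoderm genes lie near or below it.

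Endothelial genes were lower in CD45+ cells across functions. Of 20 endothelial junction and adhesion genes 19 were lower and 1 was higher, with a median difference of −5.16 beside 0.20 for all genes. Pecam1, the adhesion molecule CD31, stood at 3.65 and 3.83 on the CD45- arrays and −1.13 and −0.87 on the CD45+ arrays, a difference of −4.74 ± 0.23. Esam, an immunoglobulin-type junction protein, differed by −6.38 ± 0.35, the junction molecule genes Jam2 and Jam3 by −6.62 ± 0.33 and −4.14 ± 0.21, and the C-type lectin gene Clec14a by −7.70 ± 0.35. Cd34, the sialomucin shared by endothelium and blood progenitors, fell from 7.46 and 7.64 to 2.26 and 4.00. The gene called higher was Mcam, the adhesion molecule CD146, at 2.06 ± 0.30. Its probes disagreed: a dimmer probe of Mcam differed by −7.34. For Jam2 1 of the 2 CD45+ arrays was well above background.

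Receptors and ligands by which endothelial cells take their growth signals moved the same way: of 32 genes 29 were lower and 0 higher, median −4.86. Tek, which encodes the angiopoietin receptor Tie-2, stood at 4.08 and 4.38 on the CD45- arrays and −2.93 and −1.96 on the CD45+ arrays. Its relative Tie1 differed by −5.56 ± 0.35. Among the VEGF receptors Flt1 differed by −7.13 ± 0.45 and Flt4 was at least 32.1-fold lower, while Kdr differed by −1.27 ± 0.26 on its brightest probe and by −7.12 on another. For Flt1 another probe gave −3.28. The angiopoietin antagonist Angpt2 differed by −1.05 ± 0.61 and the co-receptor Nrp1 by −0.78 ± 0.35, neither past the test (adjusted p = 0.207 and 0.108). Vwf, the platelet-binding von Willebrand factor, fell from 7.87 and 7.84 to 0.96 and 1.35, and Nos3, the endothelial nitric oxide synthase, from 6.48 and 6.18 to 0.14 and 0.82. The apelin ligand Apln differed by −7.12 ± 0.42 and its receptor Aplnr by −6.54 ± 0.80.

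Endothelial transcription factors were mixed. Of 27 such genes 13 were lower, 2 were higher and 12 did not pass, median −1.37. The SoxF factors, which specify arterial and lymphatic endothelium, were all lower: Sox17 stood at 4.83 and 4.73 on the CD45- arrays and −2.74 and −2.97 on the CD45+ arrays, Sox7 had the bound given above, and Sox18 differed by −6.68 ± 0.65. The forkhead genes Foxc1 and Foxc2 were at least 50.1-fold and 95.5-fold lower. Of the ETS family Erg differed by −5.70 ± 0.58 and Ets1 by −4.45 ± 0.26, whereas Fli1 stood at 3.59 and 3.61 on the CD45- arrays and 3.56 and 3.42 on the CD45+ arrays and did not pass (adjusted p = 0.748). Erg and Sox18 were well above background on 1 of the 2 CD45+ arrays. Among factors used by both endothelium and early blood, Lmo2 differed by 0.19 ± 0.17 and Tal1 by −0.58 ± 0.37. Neither passed the test (adjusted p = 0.418 and 0.249). The flow-responsive factor Klf2 differed by 0.025 ± 0.45 and did not pass either (adjusted p = 0.972). Mef2c was higher by 1.43 ± 0.18. Lyl1, a relative of Tal1, was higher by 1.25 ± 0.41, but its call ended without any 1 of the 4 arrays (1.08 to 1.42) and under detected-probe scaling (0.99) or quantile normalization (0.86). Gata2, needed for blood emergence from endothelium, fell from 2.98 and 2.42 to −1.39 and −0.051. Epas1 differed by −0.088 ± 0.19 on its brightest probe but by −6.33 and −6.54 on other probes. With the mean over probes in place of the brightest, the median of the list was −2.13. Over the 19 genes with a probe well above background on all 16 arrays 6 were lower, median −0.65.

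Arterial and Notch genes were lower in 17 of 20 cases and higher in 1, median −5.46. The ligand Dll4 stood at 2.66 and 2.62 on the CD45- arrays and −4.21 and −4.34 on the CD45+ arrays, with 1 of the CD45+ arrays well above background, and the endothelial receptor Notch4 differed by −7.18 ± 0.32. The Notch targets Hey1 and Nrarp differed by −6.10 ± 0.63 and −5.07 ± 0.39, and the arterial gap junction genes Gja4 and Gja5 by −6.53 ± 0.24 and −6.99 ± 0.42. Rbpj, the DNA-binding partner of the Notch receptors, was the gene that rose, from 0.64 and 0.91 to 3.72 and 3.66. Notch1 differed by −1.08 ± 0.61 without passing (adjusted p = 0.196). On another probe it differed by −2.68, and with the mean over probes it passed, at −1.88 (adjusted p = 0.00346).
Of 17 venous, lymphatic and sinusoidal genes 10 were lower and 4 higher, median −2.83. The scavenger receptor Stab2 fell from 7.74 and 7.48 to 0.37 and 0.0027, Oit3 from 5.66 and 5.41 to −1.38 and −1.66, and the venous factor Nr2f2 from 2.58 and 2.43 to −2.88 and −3.62. The genes that rose are ones that macrophages also use: Stab1 by 1.61 ± 0.42, the mannose receptor Mrc1 by 3.30 ± 0.48, the transcription factor Maf by 2.18 ± 0.57, and the inhibitory Fc receptor Fcgr2b by at least 122-fold. Lyve1, the hyaluronan receptor of lymphatic endothelium and of embryonic macrophages, stood at 5.56 and 5.31 on the CD45- arrays and 5.62 and 5.74 on the CD45+ arrays. Its difference of 0.25 ± 0.48 did not pass (adjusted p = 0.723). Without CD45- replicate 2, Stab1 (1.50) and Maf (1.82) no longer passed, nor did Maf without CD45+ replicate 1 (2.08), and 2 genes of the list were called higher in place of 4.
Of 22 vascular basement membrane genes tested 22 were lower, median −4.54. The collagen IV chain Col4a1 fell from 8.00 and 8.30 to 1.68 and 0.92, nidogen Nid1 from 6.24 and 6.46 to −0.11 and −0.29 and multimerin Mmrn2 from 7.62 and 7.60 to 0.095 and 0.48. The integrin subunits that bind this layer changed least among them, Itga6 by −0.79 ± 0.18 and Itgb1 by −1.02 ± 0.28. Itgb1 did not pass without CD45- replicate 2 (−0.92) or CD45+ replicate 2 (−0.95). Under detected-probe scaling and quantile normalization the medians of all 6 endothelial lists stayed negative.

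**Figure D3:**
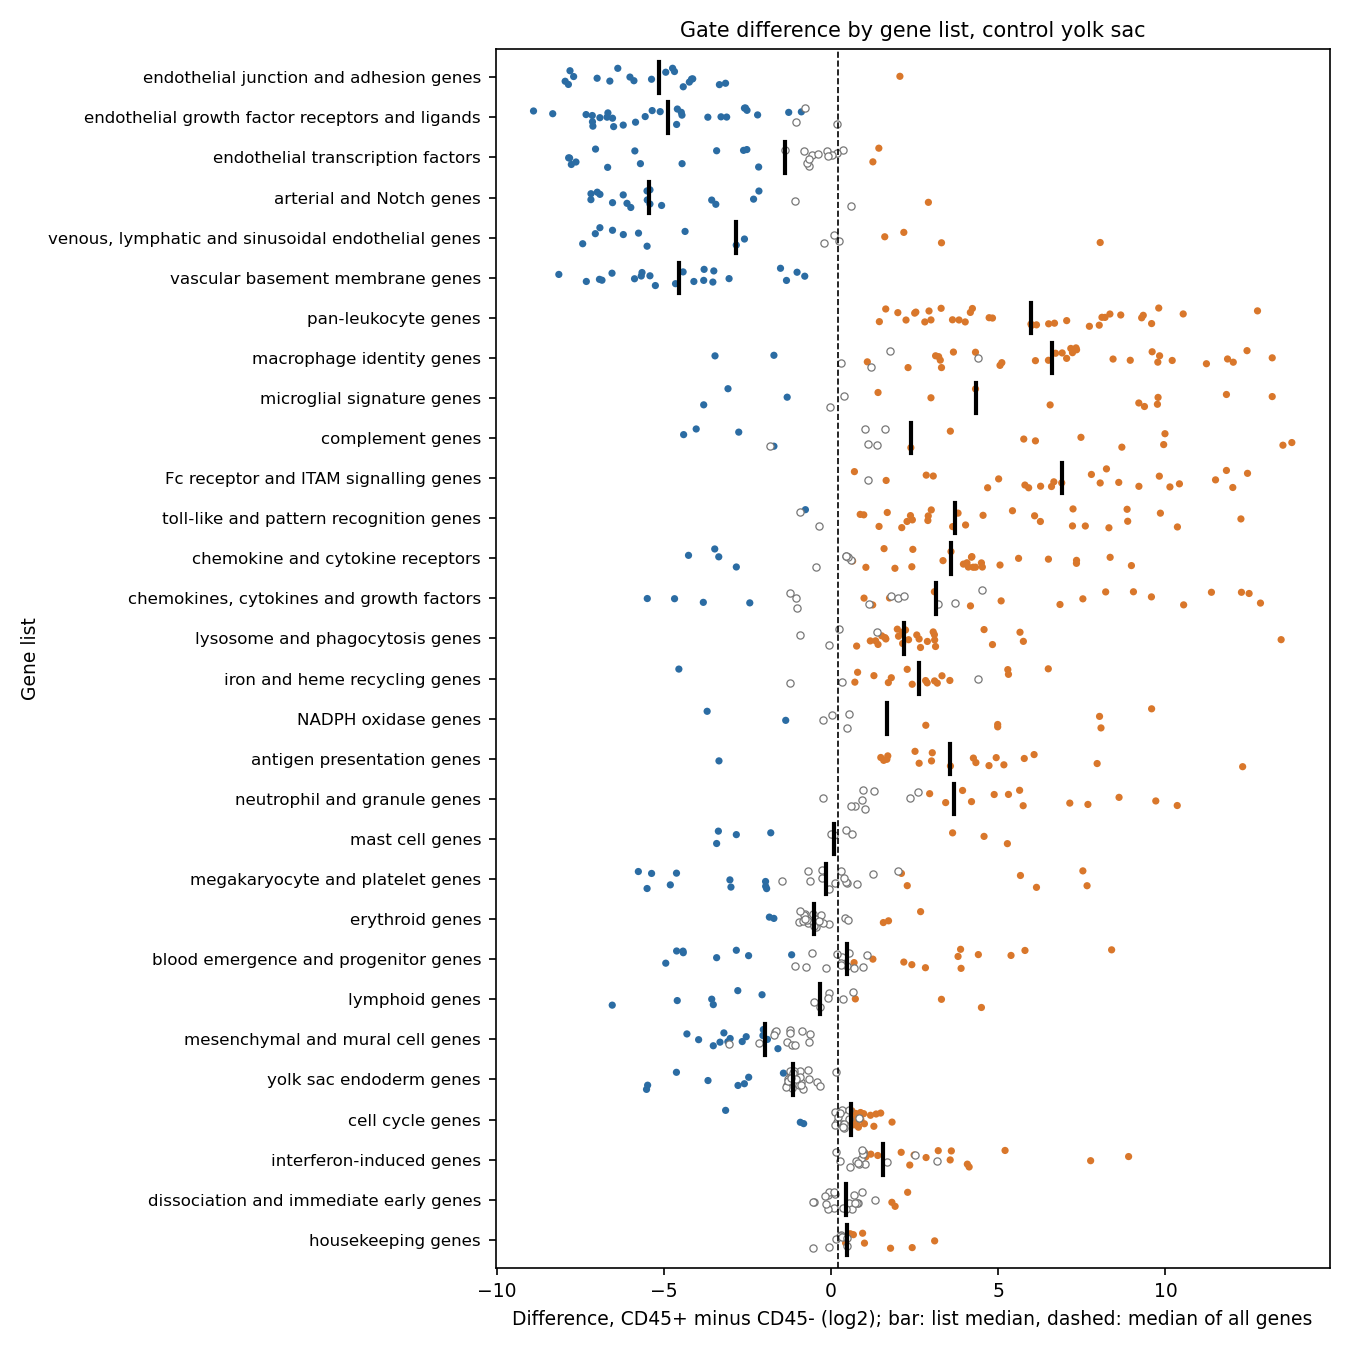
Difference between CD45+ and CD45- control yolk sac cells (log2) for every tested gene of the 30 lists, 1 row per list, with the list's median as a black bar and the median of all genes as a dashed line. Filled points passed the test and open points did not; endothelial lists lie to the left and leukocyte lists to the right, and the medians of the erythroid (−0.51), cell cycle (0.59) and housekeeping (0.48) lists lie near the dashed line.

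Leukocyte genes were higher in CD45+ cells. Of 35 pan-leukocyte genes 35 were higher and 0 lower, median 5.98. Cd53, a tetraspanin of leukocytes, was at least 241-fold higher and Cd52, a short surface glycoprotein, at least 2139.8-fold. Vav1, the guanine nucleotide exchange factor that switches on Rac2, rose from −1.75 and −2.02 to 6.20 and 6.07. The actin regulator Coro1a rose from −0.32 and −0.41 to 7.54 and 7.18, and Itgb2, the integrin chain shared by leukocyte integrins, differed by 4.23 ± 0.29. Laptm5 differed by 4.83 ± 0.22 and was well above background in CD45- cells too, at 0.61 and 0.56. The smallest changes of the list were those of Cd44, at 1.45 ± 0.27, which had other probes at 4.28, 5.25 and 2.82, and Samsn1, at 1.64 ± 0.44. Samsn1 did not pass without CD45- replicate 1 (1.69), CD45- replicate 2 (1.58) or CD45+ replicate 1 (1.45). A gene needed a probe above background in only 1 group to be tested, so one measured only in the gate where it is high had to differ. On the CD45- arrays 7 of the 35 were not well above background, and of the 24 measured on all 16 arrays 24 were higher, median 3.92.

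Macrophage identity genes were higher in 30 of 36 cases and lower in 2, median 6.61. Csf1r, the receptor for the macrophage growth factor CSF1, rose from 2.73 and 2.53 to 9.30 and 8.97 and was 90.6-fold higher. Adgre1, which encodes the macrophage adhesion receptor EMR1, rose from −3.19 and −3.26 to 5.90 and 5.54. The lysozyme genes Lyz2 and Lyz1 share much of their sequence and may share signal: Lyz2 was at least 1058-fold higher and Lyz1, well above background on 1 CD45- array, differed by 10.20 ± 0.24. Timd4, a phosphatidylserine receptor of resident macrophages, was at least 49.6-fold higher, and Mertk, a receptor that takes up dying cells, differed by 2.30 ± 0.50. Ccr2, the receptor of monocytes recruited from blood, was at least 9.75-fold higher, at −1.78 and −2.09 on the CD45+ arrays. Lower were the lipid transfer protein gene Pltp, at −3.47 ± 0.44, and Itgam, the integrin chain CD11b, at −1.71 ± 0.29. The probes of Itgam disagreed in sign, the others differing by 1.16 and 3.65. On the CD45- arrays 14 of the 36 genes were not well above background. Of the 17 measured on all arrays 13 were higher, median 3.27.

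Of 15 genes known as a microglial signature in the adult brain 10 were higher and 3 lower, median 4.32. On the CD45- arrays 5 of them were not well above background, and of the 8 measured on all 16 arrays 4 were higher and 2 lower, median 0.89. The purinergic receptor genes P2ry12 and P2ry13 were at least 202-fold and 178-fold higher. P2ry12 stood at −6.49 and −7.05 on the CD45- arrays and 2.62 and 2.25 on the CD45+ arrays. The orphan receptor gene Gpr34 was at least 269-fold higher and Trem2, a lipid-sensing receptor, at least 1836-fold. The genes that were lower were Tmem119, which differed by −1.31 ± 0.31 and by −0.83 without CD45+ replicate 2 and did not pass on the 4 arrays alone (adjusted p = 0.0718), Sall1, at least 2.8-fold lower, and the matrix protein gene Sparc, at −3.81 ± 0.33. Siglech differed by 0.38 ± 0.25 on its brightest probe without passing (adjusted p = 0.266), while other probes differed by 1.07 and 8.81.

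Complement genes were higher in 10 of 19 cases and lower in 4, median 2.39, and the direction differed between members of different roles. The C1q chains C1qa, C1qb and C1qc had the values given above. Receptors for complement fragments rose, C5ar1 by at least 259.5-fold and C3ar1, well above background on 1 CD45- array, by 8.70 ± 0.53, as did properdin, Cfp, by 5.76 ± 0.36. Regulators that guard cell surfaces were lower: Cd55 differed by −4.03 ± 0.25, Cd59a by −2.76 ± 0.14 and the C1 inhibitor Serping1 by −4.41 ± 0.25. The central component C3 differed by 1.37 ± 0.60 without passing (adjusted p = 0.0963). Of the 10 genes measured on all arrays 3 were higher and 4 lower, median 1.24.

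Of 25 Fc receptor and ITAM signalling genes 24 were higher and 0 lower, median 6.90. On the CD45- arrays 10 of the 25 were not well above background. Of the 11 measured on all 16 arrays 11 were higher, median 5.91. Tyrobp and Fcer1g encode the adaptor chains through which many of these receptors signal. Tyrobp, well above background on 1 CD45- array, rose from −3.74 and −5.24 to 8.21 and 7.72 and Fcer1g from 2.10 and 1.93 to 8.50 and 8.06. The kinase Syk, which both chains engage, was already well above background in CD45- cells and differed by 2.85 ± 0.24. The kinase Btk differed by 7.79 ± 0.21.
Toll-like and pattern recognition genes were higher in 27 of 30 cases and lower in 1, median 3.72. On the CD45- arrays 7 of the 30 were not well above background. Among the 18 measured on all 16 arrays 16 were higher and 1 lower, median 2.90. Tlr2 rose from −0.27 and −0.37 to 5.58 and 6.30 and Tlr4 from −1.38 and −1.41 to 1.58 and 1.42. The cytokine genes Il1b and Tnf, which these receptors induce, were higher by at least 406-fold and by 7.24 ± 0.53. Tlr9 was the gene that was lower, at −0.77 ± 0.15, beside 0.20 for the median of all genes. On the 4 arrays alone Tlr9 did not pass (adjusted p = 0.0503).
Of 33 chemokine and cytokine receptors 24 were higher and 4 lower, median 3.59. Il6ra rose from −1.27 and −1.28 to 6.00 and 6.14, Il10ra from −4.25 and −3.57 to 3.38 and 3.48 and the GM-CSF receptor chain Csf2ra from 1.92 and 1.71 to 5.35 and 5.46. The receptors that were lower were Kit, Il1r1 and the decoy chemokine receptors Ackr1 and Ackr3, at −2.83 ± 0.58, −4.26 ± 0.51, −3.48 ± 0.45 and −3.36 ± 0.46, with Il1r1 well above background on 1 CD45+ array. The replicates of Kit lay apart in CD45+ cells, at −1.70 and 0.70, and without the first its difference was −1.64. On the 4 arrays alone Kit did not pass (adjusted p = 0.0777). Of the 22 genes of the list measured on all 16 arrays 14 were higher, median 2.18.

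Chemokine, cytokine and growth factor genes were higher in 16 of 30 cases and lower in 4, median 3.14. On the CD45- arrays 7 of the 30 were not well above background. Among the 17 measured on all 16 arrays 9 were higher and 3 lower, median 1.75. Ccl2 stood at −0.67 and −1.39 on the CD45- arrays and 8.52 and 8.58 on the CD45+ arrays. Ccl9 and Ccl24 were at least 1967-fold and 1367-fold higher. Pf4, which encodes the chemokine platelet factor 4, was well above background in both gates and rose from 1.32 and 1.79 to 9.34 and 8.84. The growth factors that were lower were Igf2, from 5.09 and 3.88 to 0.086 and −0.47, Tgfb2, from 2.16 and 1.87 to −1.48 and −2.13, the Kit ligand Kitl at −2.43 ± 0.46 and the chemokine Cxcl12 at −5.50 ± 0.66. Cxcl1 showed how far the CD45+ arrays could part: it stood at −1.57 and 5.04 on them, and its difference of 1.78 ± 1.80 did not pass (adjusted p = 0.474). Without CD45+ replicate 1 the difference of Cxcl1 was 5.08 and passed.

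Genes of digestion within the cell were higher in most cases. Of 30 lysosome and phagocytosis genes 26 were higher and 0 lower, median 2.18. The cathepsin genes Ctsb, Ctsd and Ctsz differed by 3.06 ± 0.29, 2.23 ± 0.26 and 2.32 ± 0.24, and the lysosomal membrane protein gene Lamp1 by 1.52 ± 0.21. Ctsl and Ctsh, cathepsins as well, differed by −0.075 ± 0.31 and −0.93 ± 0.44 without passing (adjusted p = 0.874 and 0.121).
Of 20 iron and heme recycling genes 16 were higher and 1 lower, median 2.63. Heme oxygenase Hmox1 rose from 3.62 and 3.74 to 7.26 and 6.73, the iron exporter ferroportin, Slc40a1, from 1.76 and 1.74 to 4.86 and 4.84, and the phagosomal metal transporter Slc11a1 from −1.83 and −1.45 to 5.11 and 4.60. Spic, the transcription factor of iron-recycling macrophages, was at least 26.7-fold higher. The copper-dependent ferroxidase Heph was the gene that was lower, at −4.55 ± 0.47 on its brightest probe, while other probes differed by −2.17 and −0.35.
Of 12 NADPH oxidase genes 6 were higher and 2 lower, median 1.68. Of the phagocyte oxidase, which makes superoxide at the phagosome, the membrane chain Cybb was at least 78.7-fold higher, its partner chain Cyba rose by 2.83 ± 0.31, and the cytosolic subunits Ncf1 and Ncf4 rose by 8.07 ± 0.21 and 4.98 ± 0.35, with Ncf1 well above background on 1 CD45- array. Rac2, also of that oxidase, rose as well. Nox4, the catalytic subunit of an endothelial oxidase, was lower, at −3.71 ± 0.52. Without CD45- replicate 1, CD45- replicate 2 or CD45+ replicate 1, 1 gene was lower. Of the 9 genes measured on all arrays 4 were higher and 1 lower, median 0.53.
Of 19 antigen presentation genes 18 were higher and 1 lower, median 3.57. On the CD45- arrays 5 of the 19 were not well above background. Among the 12 measured on all 16 arrays 11 were higher and 1 lower, median 2.83. The class II genes H2-Ab1 and H2-Eb1 rose from −1.28 and −1.39 to 2.89 and 3.11 and from −3.58 and −3.06 to 2.28 and 2.63. The costimulatory ligand Cd86 was at least 1319-fold higher, while Cd40 was lower, at −3.35 ± 0.76.

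Factors that drive blood cell fate moved in both directions. Of 33 blood emergence and progenitor genes 12 were higher, 8 lower and 13 did not pass, median 0.48. Runx1, which drives the emergence of blood cells from endothelium, rose from −1.12 and −1.35 to 4.29 and 4.01. Spi1, which encodes the myeloid factor PU.1, stood at −6.00 and −5.88 on the CD45- arrays, not well above background, and at 2.38 and 2.52 on the CD45+ arrays. It was at least 204-fold higher. Ikzf1 was at least 50.9-fold higher, and Myb, Cebpa, Cebpb and Irf8 differed by 4.41 ± 0.41, 3.87 ± 0.40, 3.89 ± 0.68 and 3.80 ± 0.47. Lower were Gata2, Kit, Cd34 and Mecom, the last by at least 6.73-fold, with Procr at −4.62 ± 0.37 and Hoxa9 at −2.47 ± 0.18. Hlf stood at −3.55 and −1.18 on the CD45+ arrays, and its difference of 1.07 ± 0.71 did not pass (adjusted p = 0.266). It passed without replicate 1 of those arrays, at 2.26.

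Since Spi1 was among the factors seen in CD45+ cells alone and several endothelial ETS factors were lower there, promoter sequences were searched for motifs of these families. RefSeq promoters (GRCm38.p6, 250 bases before to 50 after each start site) were searched on both strands for GAGGAAGT, a motif of PU.1, ACAGGAAG, a motif of ERG and ETS1, TGTGGTT, a motif of RUNX factors, and AGATAAG, a motif of GATA factors. Both ETS motifs contain AGGAAG but differ in the base before it, so no site matches both. GAGGAAGT was found in 3.20% of 32851 promoters, in 3.07% of the 16266 promoters of genes tested, and in 4.52% of 4162 promoters of genes called higher in CD45+ cells, against 2.10% of 3148 promoters of genes called lower. Among genes higher by more than 5 on the log2 scale, a limit chosen after the values were seen, 14.5% of 282 promoters held it, against 1.52% of 328 promoters of genes lower by more than 5. For ACAGGAAG the shares were 3.58% of all promoters, 3.30% for genes tested, 3.94% for genes called higher and 2.73% for genes called lower. They were 8.87% for genes higher by more than 5 and 1.52% for genes lower by more than 5. The RUNX motif was found in 5.27% of all promoters, 3.99% for genes tested, 4.83% for genes called higher and 3.05% for genes called lower. Its shares were 11.0% for genes higher by more than 5 and 4.27% for genes lower by more than 5. For the GATA motif the shares in the same order were 3.04%, 2.20%, 2.47%, 2.41%, 5.32% and 4.27%. A gene can have several promoters, and a match is a description of letters and not a binding site.

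The promoters of C1qc, F13a1, Ctss and Vav1 are shown as genes that rose and held the PU.1 motif. That of Emcn is shown as a gene that fell and held the ERG and ETS1 motif. Genes that fell held that motif less often: 2.73% of promoters of genes called lower, against 3.30% of those of genes tested. Capitals mark the motif in these promoters, on whichever strand it lay. They span chr4:136892865-136893164 (minus strand), chr13:37049164-37049463 (minus), chr3:95526536-95526835 (plus), chr17:57278850-57279149 (plus) and chr3:137340828-137341127 (plus) on GRCm38.p6.
C1qc: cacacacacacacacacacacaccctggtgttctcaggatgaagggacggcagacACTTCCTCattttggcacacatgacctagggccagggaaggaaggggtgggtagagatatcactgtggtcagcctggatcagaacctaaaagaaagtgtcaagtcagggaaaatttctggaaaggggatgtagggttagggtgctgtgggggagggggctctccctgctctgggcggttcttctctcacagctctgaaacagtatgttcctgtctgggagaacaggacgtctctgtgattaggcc
F13a1: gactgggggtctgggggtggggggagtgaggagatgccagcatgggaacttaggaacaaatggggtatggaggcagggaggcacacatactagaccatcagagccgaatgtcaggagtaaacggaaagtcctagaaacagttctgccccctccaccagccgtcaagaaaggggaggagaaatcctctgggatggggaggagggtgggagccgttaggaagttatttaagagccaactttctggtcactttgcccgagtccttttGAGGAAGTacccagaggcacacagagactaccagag
Ctss: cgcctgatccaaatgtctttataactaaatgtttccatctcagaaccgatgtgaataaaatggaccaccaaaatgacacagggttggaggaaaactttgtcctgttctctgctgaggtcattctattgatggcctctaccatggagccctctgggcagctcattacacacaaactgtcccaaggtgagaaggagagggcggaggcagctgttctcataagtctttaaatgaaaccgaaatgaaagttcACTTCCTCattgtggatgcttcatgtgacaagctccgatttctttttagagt
Vav1: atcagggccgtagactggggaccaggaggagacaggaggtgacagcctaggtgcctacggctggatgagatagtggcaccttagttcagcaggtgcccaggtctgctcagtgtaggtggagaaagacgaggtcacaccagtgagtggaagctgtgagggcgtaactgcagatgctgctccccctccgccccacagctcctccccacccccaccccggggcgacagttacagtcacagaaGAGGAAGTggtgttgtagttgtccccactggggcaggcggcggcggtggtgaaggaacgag
Emcn: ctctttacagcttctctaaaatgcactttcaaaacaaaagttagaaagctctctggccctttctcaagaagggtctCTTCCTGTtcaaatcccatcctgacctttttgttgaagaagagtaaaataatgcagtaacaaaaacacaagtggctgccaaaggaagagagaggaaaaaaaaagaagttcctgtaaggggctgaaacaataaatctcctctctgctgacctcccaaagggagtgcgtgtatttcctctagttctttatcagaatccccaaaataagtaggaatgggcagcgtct
Counting the start site as 0, the first base of the motif lay at −2 in Ctss, −11 in Vav1, 14 in F13a1, −195 in C1qc and −174 in Emcn. F13a1 has 2 promoters in the table and the other genes have 1 each. The levels beside these sequences ran from −6.60 and −6.92 to 6.92 and 6.48 for Ctss and from −1.75 and −2.02 to 6.20 and 6.07 for Vav1, CD45- arrays first.

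Megakaryocyte, erythroid, lymphoid and mast cell lists held changes in both directions. Of all genes 22.6% were higher and 15.8% lower, and the counts of higher megakaryocyte and lymphoid genes lie near that share, while those of erythroid genes lie below it in both directions. Of 30 megakaryocyte and platelet genes 6 were higher, 10 lower and 14 did not pass, median −0.16. Those higher were Pf4, Rgs18, Fermt3, Bin2, Stxbp2 and P2rx1. Among the defining markers Itga2b, the integrin chain CD41, fell from 1.02 and 1.12 to −2.78 and −1.06, while the von Willebrand receptor genes Gp9 and Gp1bb differed by −0.062 ± 0.50 and −0.70 ± 0.36 without passing (adjusted p = 0.937 and 0.152). The median of the list turned positive, to 0.32, without CD45+ replicate 1, and to 0.05 with normexp background correction. It was −0.78 without CD45+ replicate 2. Of the 30 genes 5 were higher on replicate 1 of the CD45+ arrays than on replicate 2, by a median difference of −0.74. Among all genes tested 61.9% were higher on replicate 1.
Of 24 erythroid genes 3 were higher and 2 lower, median −0.51. The embryonic globin gene Hbb-y stood at 9.57 and 9.29 on the CD45- arrays and 9.55 and 9.18 on the CD45+ arrays, and Hbb-bh1 at 8.67 and 7.86 on the CD45- and 7.97 and 7.20 on the CD45+ arrays. Globin levels of both gates overlapped or lay close, and neither difference passed (adjusted p = 0.914 and 0.562). The red cell marker Alas2, the heme synthesis enzyme of erythroid cells, differed by −0.95 ± 0.73 without passing (adjusted p = 0.34). Hemgn, Tspan33 and the erythropoietin receptor gene Epor were higher, at 2.68 ± 0.28, 1.72 ± 0.38 and 1.56 ± 0.29. Without CD45- replicate 1 the list had 1 gene lower and a median of −0.21, and without CD45- replicate 2 a median of −0.89. It was −0.78 under detected-probe scaling and −0.24 with normexp.
Of 15 lymphoid genes 3 were higher and 6 lower, with 1 higher without CD45- replicate 2 or without CD45+ replicate 2. The interleukin-7 receptor Il7r was at least 6.46-fold higher, a call that ended without either of those arrays (4.39 and 3.96), and Cd79b differed by 3.30 ± 0.26, while Lck, Gata3 and Tcf7 were lower, at −4.60 ± 0.25, −3.57 ± 0.56 and at least 5.28-fold. Of 11 mast cell genes 3 were higher and 4 lower, and the median of 0.10 changed sign with the scaling (−0.17 on detected probes). Of the defining mast cell markers Cpa3 stood at −3.45 and −0.011 on the CD45+ arrays, and Ms4a2 and Fcer1a were not among the genes tested. Of the 11 mast cell genes 2 were higher on replicate 1 of the CD45+ arrays than on replicate 2, beside 61.9% of all genes. The median difference of these mast cell genes was −0.71.

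The 2 CD45+ arrays lay apart most in 3 of the 30 lists, granulocyte, interferon-induced and yolk sac endoderm genes. Replicate 2 was higher in granulocyte genes: of 22 neutrophil and granule genes 2 were higher on replicate 1 than on replicate 2, beside 61.9% of all genes. The median difference of replicate 1 from replicate 2 was −1.66, beside 0.15 for all genes. The calprotectin gene S100a9 stood at 1.13 and 5.19 on the CD45+ arrays and at −7.01 and −7.37 on the CD45- arrays. The eosinophil granule gene Prg2 stood at 1.95 and 4.54 and myeloperoxidase, Mpo, at 4.48 and 6.15 on the CD45+ arrays. Against CD45- cells 13 of 22 such genes were higher and 0 lower. Without replicate 1 of the CD45+ arrays 17 were higher, median 4.93, and without replicate 2, 11 were higher, median 2.63. The lactoferrin gene Ltf and the elastase gene Elane differed by 0.92 ± 0.88 and 0.72 ± 0.31 without passing (adjusted p = 0.447 and 0.0926), and Ltf passed without replicate 1, at 2.54. Of the 5 granule genes measured on all 16 arrays 2 were higher.

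Replicate 1 was higher in interferon-induced and in yolk sac endoderm genes. Of 30 interferon-induced genes 28 were higher on replicate 1, by a median of 1.29, beside 61.9% and 0.15 for all genes. In CD45+ cells 16 were higher than in CD45- cells, with 0 lower. Mx1, an antiviral GTPase, stood at 3.76 and 0.85 on the CD45+ arrays and was at least 185-fold higher than in CD45- cells. Ifit1 stood at 1.29 and −0.87 and Rsad2 at 3.70 and 0.97 on the CD45+ arrays, and neither passed (adjusted p = 0.225 and 0.656). Without replicate 1 of the CD45+ arrays 11 interferon-induced genes were higher, median 1.26, and without replicate 2, 21 were higher, median 2.15.
Of 34 yolk sac endoderm genes 33 were higher on replicate 1, by a median of 1.89, beside 61.9% and 0.15 for all genes. The thyroxine carrier gene Ttr stood at 5.25 and 5.05 on the CD45- arrays and 5.03 and 2.83 on the CD45+ arrays, and alpha-fetoprotein, Afp, at 8.79 and 8.69 and 8.88 and 7.20. Replicate 1 of the CD45+ gate lay near the CD45- arrays for both genes, and replicate 2 lay lower. The list had 8 genes lower in CD45+ cells and 0 higher, median −1.15, with list medians at 2.45 and 2.46 on the CD45- arrays and 1.71 and −0.27 on the CD45+ arrays. Without replicate 2 of the CD45+ arrays 3 genes were lower, median −0.15, and without replicate 1, 9 were lower, median −2.12. Leaving out either CD45- array also left 3. The endoderm factors Gata4 and Gata6, which are not particular to that layer, were lower, at −5.52 ± 0.44 and −5.48 ± 0.47.
Of 26 mesenchymal and mural cell genes 13 were lower and 0 higher, median −1.96, and their list medians were −0.79 and −0.49 on the CD45- arrays and −2.35 and −3.03 on the CD45+ arrays. Pdgfra fell from 0.53 and 0.80 to −3.04 and −3.56 and smooth muscle actin, Acta2, from 4.18 and 4.33 to 1.34 and 0.53, while Pdgfrb and the collagen I chain Col1a1 differed by −0.63 ± 0.49 and −1.32 ± 0.58 without passing (adjusted p = 0.345 and 0.101). Of the 26 genes 23 were higher on replicate 1 of the CD45+ arrays than on replicate 2, beside 61.9% of all genes. The median of that difference was 0.98 for these 26 genes. Without replicate 1 of the CD45+ arrays 16 were lower, and without replicate 2, 10. What part the endoderm and mesenchymal markers have in the lower endothelial and basement membrane genes was not tested.

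**Figure D4:**
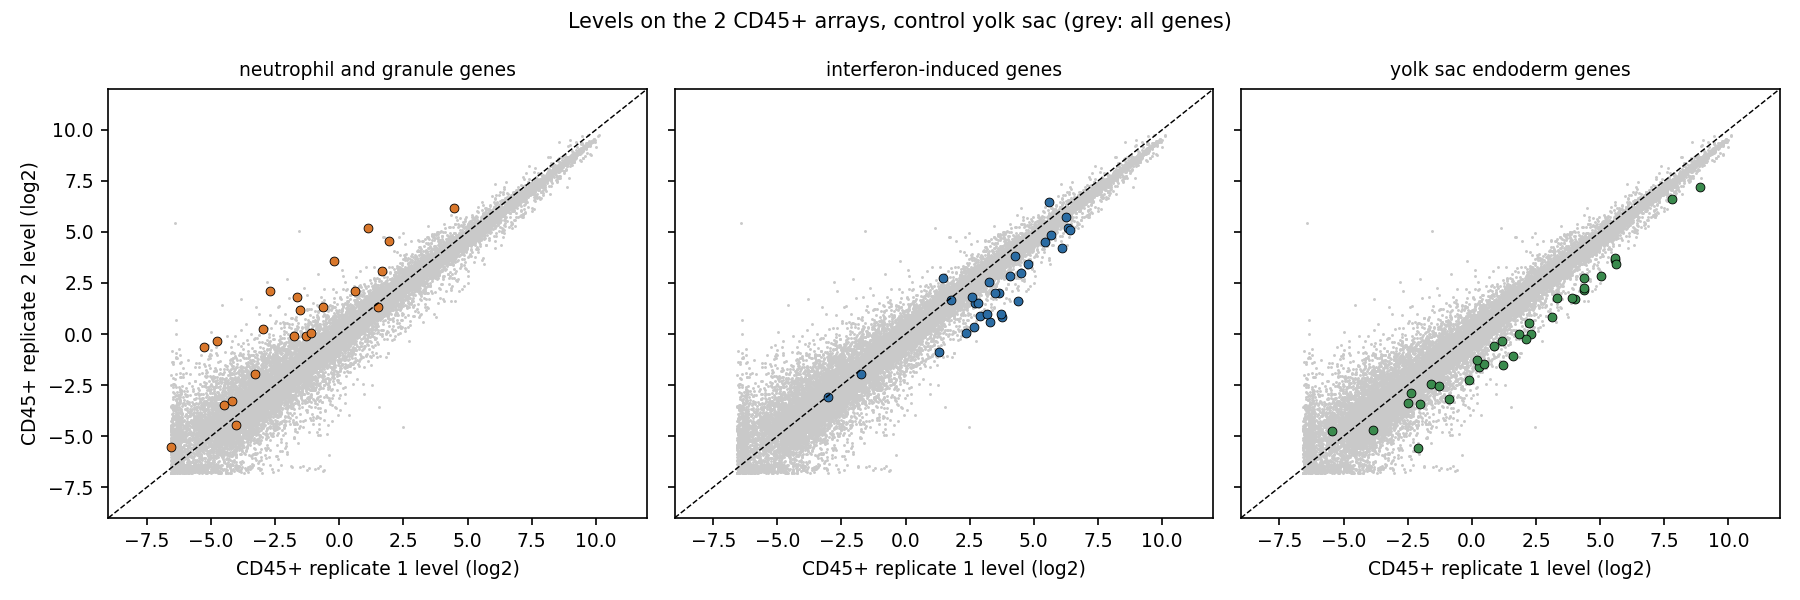
Level of each gene on replicate 1 (horizontal axis) and replicate 2 (vertical axis) of the CD45+ control yolk sac arrays, log2 relative to each array's 75th percentile, in 3 panels for neutrophil and granule genes, interferon-induced genes and yolk sac endoderm genes, over all genes in grey. Of the granule genes 20 of 22 lie above the line of equal levels, and 28 of 30 interferon-induced and 33 of 34 endoderm genes lie below it. Below the line lie 61.9% of all genes.

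Of 34 cell cycle genes 18 were higher and 3 lower, median 0.59, beside 0.20 for all genes. Pcna, the sliding clamp of replication, differed by 1.18 ± 0.15 and the proliferation antigen gene Mki67 by 0.89 ± 0.14, the latter not passing after quantile normalization (0.53). The D cyclins went the other way: Ccnd1, Ccnd2 and Ccnd3 were lower, at −0.82 ± 0.26, −3.15 ± 0.27 and −0.92 ± 0.24. Without CD45- replicate 1 or without CD45+ replicate 2, 1 cell cycle gene was lower, since Ccnd1 (−0.70 and −0.60) and Ccnd3 (−0.90 and −0.78) no longer passed. Ccnd1 did not pass without CD45- replicate 2 either (−0.94), and with quantile normalization 10 were higher, median 0.28. Of 17 housekeeping genes 8 were higher and 0 lower, median 0.48, with Gapdh at 0.67 ± 0.21 and Actb at 0.30 ± 0.21, the latter without passing (adjusted p = 0.297). Leaving out CD45- replicate 1, CD45- replicate 2 or CD45+ replicate 1 left 4, 3 and 3 housekeeping genes higher, and Gapdh did not pass without CD45- replicate 2 (0.53) or CD45+ replicate 1 (0.45), nor under detected-probe scaling or quantile normalization (0.40 and 0.33). Of 23 immediate early genes 3 were higher and 0 lower, with 1 higher without CD45- replicate 2. Fos and Jun differed by 0.096 ± 0.37 and −0.083 ± 0.34 without passing (adjusted p = 0.865 and 0.874).

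Gate differences in the control embryo proper were compared with those in the control yolk sac gene by gene. For the difference of the gate differences, yolk sac minus embryo, 79 genes were higher (0.321%) and 243 lower (0.989%) of 24578. Each tissue lay on a slide of its own, and the gate difference was taken within a slide. Leaving out yolk sac CD45- replicate 1 or 2 left 40 and 43 higher and 129 and 116 lower. Without yolk sac CD45+ replicate 1 or 2 there were 186 and 129 higher, without embryo CD45- replicate 2, 122 higher, and without embryo CD45+ replicate 2, 120 higher and 380 lower. A fit on the 8 arrays of this contrast alone called 16 higher and 65 lower, and with the replicate number as a block on those arrays limma called 0 and 0 (945 and 1183 at an unadjusted p under 0.05). Glipr1, which encodes a protein of the pathogenesis-related family, stood in the yolk sac at 3.21 and 3.60 on the CD45- and 3.15 and 2.83 on the CD45+ arrays. In the embryo it stood at −3.84 and −4.86 on the CD45- and 4.27 and 3.35 on the CD45+ arrays, so its gate difference was −8.58 ± 0.64 in the yolk sac relative to the embryo (adjusted p = 0.000393). The levels in CD45- cells differed between the tissues for several of these genes. The fatty acid binding protein gene Fabp3 stood at 5.85 and 6.07 in yolk sac CD45- cells and 0.64 and −0.66 in embryo CD45- cells, and its gate difference was −3.83 in the yolk sac and 2.67 in the embryo. Pth1r, the parathyroid hormone receptor gene, stood at 3.33 and 3.92 in yolk sac CD45- cells and −0.47 and 0.30 in embryo CD45- cells. Serinc2, well above background on 1 yolk sac CD45+ array, differed by −7.27 and −1.25 between the gates of yolk sac and embryo, Islr2 by −6.59 and −0.99, and Pth1r by −5.94 and −1.21. Serinc2 and Pth1r did not pass without embryo CD45- replicate 1 (−5.73 and −4.34) or yolk sac CD45- replicate 2 (−5.86 and −4.43).
Prox1, the master factor of lymphatic endothelium, stood at −3.23 and −3.59 on yolk sac CD45- and −3.60 and −3.04 on yolk sac CD45+ arrays. In the embryo it stood at 0.84 and −0.065 on CD45- and −3.86 and −2.99 on CD45+ arrays, and the gate differences differed by 3.91 ± 0.66 (adjusted p = 0.017). That call ended without embryo CD45- replicate 1 (3.45), embryo CD45+ replicate 1 (3.47), yolk sac CD45- replicate 1 (4.09) or 2 (3.73), or yolk sac CD45+ replicate 2 (3.63). The lysophospholipase gene Enpp2, which encodes autotaxin, rose from −0.36 and −0.41 to 3.41 and 2.51 in the yolk sac and stood at 2.44 and 2.48 and 1.22 and 1.72 in the embryo. Prkcb, a protein kinase C gene well above background on 1 yolk sac CD45- array, had gate differences of 7.68 in the yolk sac and 3.28 in the embryo. The metal transporter Slc11a1 differed by 6.50 between the yolk sac gates, and on the embryo CD45- arrays it was not well above background, so the difference between the tissues has no measured size. Its call ended with normexp (−1.75, adjusted p = 0.0566). List medians in yolk sac and embryo were −5.16 and −4.88 for junction genes, 5.98 and 5.88 for pan-leukocyte genes, 6.61 and 6.06 for macrophage genes and 1.54 and 3.01 for interferon-induced genes. Of the 30 interferon-induced genes 1 passed for the difference of gate differences, Oas1a, at −2.60 (adjusted p = 0.0282). It did not pass without embryo CD45- replicate 1 (−2.37), either embryo CD45+ array (−2.69 and −2.51) or either yolk sac CD45- array (−2.88 and −2.32).

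Gate differences in the yolk sac of Tie-2-Etv2 animals were smaller for most leukocyte and endothelial genes listed. This comparison and that with the embryo share the control yolk sac arrays. For the difference of gate differences, control minus Tie-2-Etv2, 2579 genes were higher (10.5%) and 1938 lower (7.89%), with 2001 and 2497 under detected-probe scaling. Without control yolk sac CD45- replicate 2, 1688 were higher. Of 35 pan-leukocyte genes 30 had a more positive gate difference in control animals, and their median was 5.98 in controls and 1.01 in Tie-2-Etv2 animals. Rac2 stood at −3.43 and −4.23 on the CD45- and 5.87 and 5.64 on the CD45+ arrays of controls. In Tie-2-Etv2 yolk sac it stood at 5.65 and 5.06 on the CD45- and 6.39 and 6.27 on the CD45+ arrays. Pf4 stood at 9.17 and 8.95 and 7.27 and 6.64 there, so its gate difference was 7.53 in controls and −2.10 in Tie-2-Etv2 animals. F13a1 had gate differences of 12.03 and 0.54, Plek of 8.10 and −0.57, and Tyrobp of 12.46 and 3.40, controls first.
Endothelial genes differed in the opposite direction. Of 20 junction genes 18 had a more negative gate difference in control animals, with medians of −5.16 and −1.22. Cdh5 stood at 4.72 and 4.76 on the CD45- and 2.86 and 3.13 on the CD45+ arrays of Tie-2-Etv2 yolk sac, and its gate difference was −6.01 in controls and −1.75 there (difference −4.27 ± 0.43, adjusted p = 0.000117). Erg, well above background on 1 control CD45+ array, had gate differences of −5.70 and 0.26, and Pecam1 of −4.74 and −0.19. Neutrophil and granule genes had medians of 3.68 in controls and 5.71 in Tie-2-Etv2 yolk sac, and for 3 of 22, Lcn2, Gfi1 and Ltf, the gate difference was higher in Tie-2-Etv2 animals. Gfi1 was not well above background on the CD45- arrays of Tie-2-Etv2 animals. For Mpo, named after its value was seen, it was higher in controls, by 6.05. Ltf stood at −3.89 and −4.38 on the CD45- and 4.14 and 2.00 on the CD45+ arrays there, beside −2.16 and −2.42 and −2.99 and 0.25 in controls. Lcn2 did not pass without Tie-2-Etv2 CD45- replicate 1 (−3.30), control CD45- replicate 1 (−3.14), Tie-2-Etv2 CD45+ replicate 1 (−2.41) or control CD45+ replicate 1 (−2.50).

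**Figure D5:**
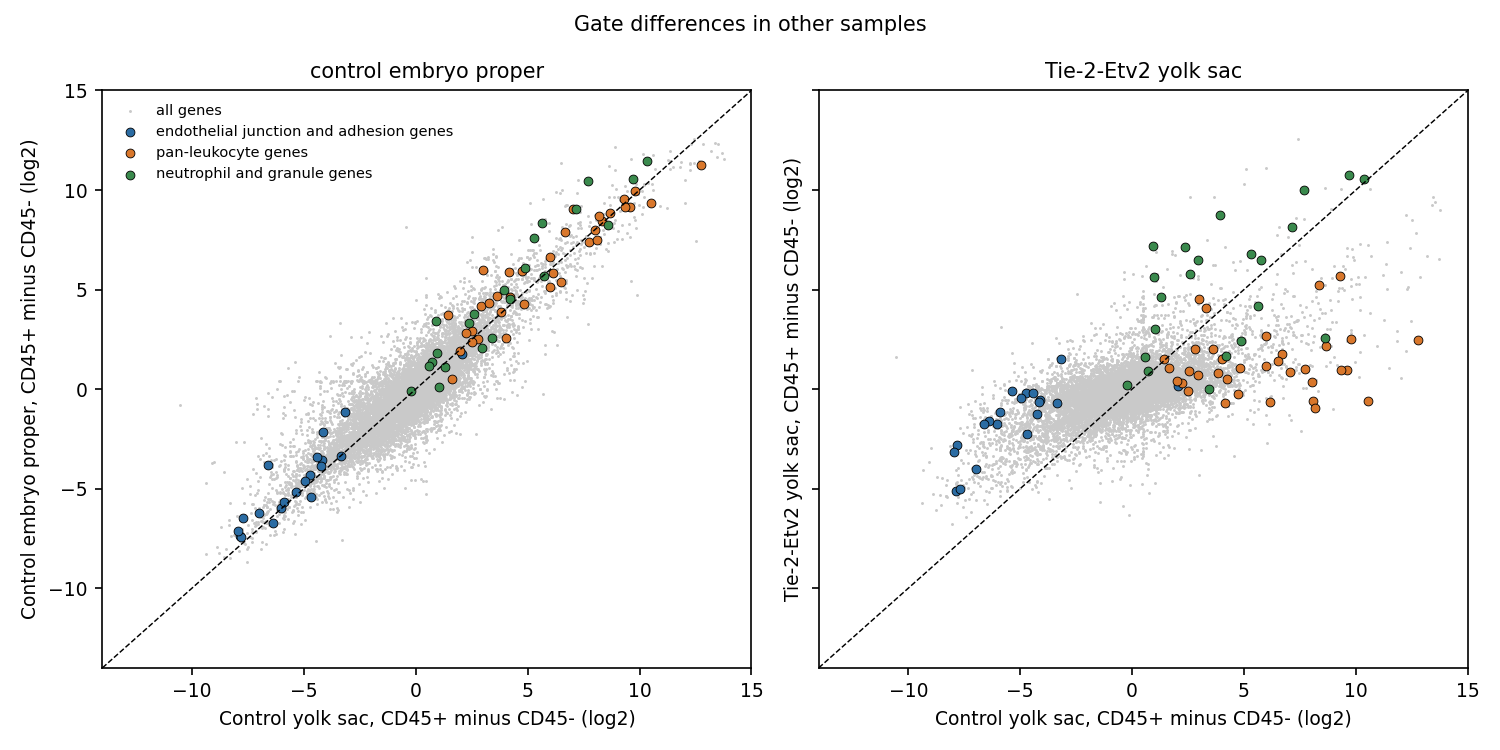
Difference between CD45+ and CD45- cells (log2) in the control yolk sac (horizontal axis) against the same difference in the control embryo proper (left panel) and in the Tie-2-Etv2 yolk sac (right panel), for junction, pan-leukocyte and neutrophil genes over all genes in grey. Points lie along the line of equal differences on the left, and on the right junction and pan-leukocyte genes lie closer to 0 on the vertical axis than on the horizontal axis.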

How the data were processed

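RNA of the sorted cells was extracted with a Qiagen RNA microelute kit and labelled with the Agilent Low Input Quick Amp kit, per the labels' protocols. Arrays were read with Agilent Feature Extraction 10.7, per the submitters' processing notes. Per the file headers the deposited values are 1-colour spot intensity values, background-subtracted and detrended within each array but not normalized between arrays.
The log2 of each intensity was set relative to the array's 75th percentile. Spots of a probe were averaged, 34126 probes were kept that rose well above background on both arrays of some group, and the brightest probe stood for a gene, giving 24578 genes, 16531 of them with a RefSeq symbol.
Differences were fitted with limma 3.58.1 in R 4.3.3 as means of 8 groups over all 16 arrays (lmFit and eBayes, 8 residual degrees of freedom), with Benjamini-Hochberg adjustment over all genes, and the script was tested on simulated data. The comparison, members and lists were chosen with earlier results of these data known. Most list genes are given only in counts, and some are not reported here. Named are list genes and, outside the lists, the 8 largest changes or bounds each way and the 8 largest differences of gate differences each way. The 16 columns of the series' value table were not used here. An exact permutation test of 2 arrays against 2 cannot give a p below 0.333.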

Additional observations from a re-analysis of the deposited data

Results flagged for a closer look

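The gate difference itself differed between tissues and between genotypes, by limma's test of the difference of differences. Between control yolk sac and control embryo proper 79 genes had a higher and 243 a lower gate difference in the yolk sac, and 0 and 0 with the replicate number as a block on these 8 arrays. Higher were Chil3 by 5.93, Prkcb by 4.40, Enpp2 by 4.34, Rbm24 by 4.00, Prox1 by 3.91, Fap by 3.46, Rnf150 by 3.32 and Tdrp by 2.80. Lower were Glipr1 at −8.58, Fabp3 at −6.51, Serinc2 at −6.01, Islr2 at −5.59, Stmn2 at −5.36, Fhod3 at −4.96, Mogat1 at −4.90, Pth1r at −4.72, Slc11a1 at −4.87 and Oas1a at −2.60. Chil3, a chitinase-like gene of myeloid cells, stood at 1.61 and 0.18 in yolk sac CD45+ cells and −2.47 and −1.93 in embryo CD45+ cells. Rbm24, Fap and Rnf150 lost their calls without yolk sac CD45- replicate 1 (4.01, 3.49 and 3.03), and Rbm24 and Fap also without yolk sac CD45- replicate 2 (3.99 and 3.44). Rbm24 further lost it without embryo CD45- replicate 1 (3.33), embryo CD45+ replicate 1 (3.22) or yolk sac CD45+ replicate 2 (3.63), and Rnf150 without embryo CD45- replicate 2 (3.17). Chil3 kept its call without yolk sac CD45+ replicate 2 and lost it without any other of the 8 arrays (5.22 to 6.29). Fitted on these 8 arrays alone, Fhod3, Islr2, Mogat1, Oas1a, Prox1, Pth1r, Rbm24, Rnf150, Serinc2, Stmn2 and Tdrp did not pass (adjusted p from 0.0586 to 0.215). The value of Slc11a1 is set against embryo CD45- arrays where it was not well above background.

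Between control and Tie-2-Etv2 yolk sac 2579 genes had a higher and 1938 a lower gate difference in controls. Higher were F13a1 by 11.49, Pf4 by 9.63, Sla by 9.14, Tyrobp by 9.06, Plek by 8.68, Rac2 by 8.62, Lyz1 by 8.32 Tbxas1 by 8.29 and Mpo by 6.05. For F13a1, Pf4, Plek, Rac2 and the adaptor gene Sla the levels on the CD45- arrays were higher in Tie-2-Etv2 animals than in controls, as with Sla at 4.26 and 3.43 against −4.47 and −4.56. Lower were Pi16 at −8.12, the tissue factor gene F3 at −6.59, Hid1 at −6.43, Ltf at −6.29, Slco3a1 at −6.14, Lbp at −6.05, Stfa3 at −5.99, Erg at −5.96, Gfi1 at −4.65, Pecam1 at −4.55, Cdh5 at −4.27 and Lcn2 at −3.32. The call of the stefin gene Stfa3 ended without any 1 of 7 of the 8 arrays (−4.39 to −6.32), and held without control CD45+ replicate 2. The gates of each group have 2 arrays, so no single array could be judged an outlier.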

How the results depend on the processing

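Of 227 named gate differences 3234 of 3331 values under the alternatives kept their direction and their side of the threshold, as did 602 of 685 values for 39 named differences of gate differences, none of which changed sign. Counts moved more. Genes called higher in CD45+ cells fell from 5555 to 3008 with the replicate block on the 4 arrays alone, and genes called lower from 3878 to 2486 under a strict filter (probes well above background on all 16 arrays), which tests fewer genes. Leaving out 1 array gave 3786 to 5015 higher and 3040 to 3610 lower. For the yolk sac against the embryo the calls (79 higher, 243 lower) became 16 and 65 on the 8 arrays alone, 31 and 133 under the strict filter, and 0 and 0 with the replicate block on those arrays (limma, 945 and 1183 at an unadjusted p under 0.05), with 40 to 186 higher and 116 to 380 lower when 1 array was left out. Against Tie-2-Etv2 yolk sac leaving out 1 array gave 1688 to 2616 higher and 1306 to 1806 lower. With the replicate block over all 16 arrays 6336 genes were higher and 4111 lower, and a shared number is no shown pairing: deviations of same-numbered arrays of both gates correlated at 0.032 in control yolk sac, 0.385 in control embryo, 0.372 in Tie-2-Etv2 yolk sac and 0.222 in Tie-2-Etv2 embryo, and at −0.047 to 0.385 over 28 pairs of groups. With the block on the 4 arrays alone the calls of Ccnd1, Ccnd3, Cpa3, Gapdh, Itga6, Itgam, Itgb1, Kdr, Kit, Mki67, Tlr9 and Tmem119 ended, and without it those of Ccnd1, Gapdh, Kit, Tlr9 and Tmem119. Changes of sign came from genes that did not pass, other than Itgam and Mcam: with the mean over probes Itgam was at 1.03 and Mcam at −2.64. Detected-probe scaling gave Fos −0.17, Klf2 −0.24, Lmo2 −0.073 and Lyve1 −0.020, and quantile normalization gave Fos −0.36, Klf2 −0.44, Lmo2 −0.18, Lyve1 −0.11 and Siglech −0.019. Normexp gave Gp9 0.0070 and Klf2 −0.025. With 1 array left out Afp ranged from −1.54 to 0.14, Ctsl from −0.31 to 0.16, Cxcl1 from −1.52 to 5.08, Fos from −0.32 to 0.51, Gp9 from −0.83 to 0.70, Hbb-y from −0.26 to 0.11, Hlf from −0.11 to 2.26, Jun from −0.44 to 0.27, Klf2 from −0.70 to 0.75, Ltf from −0.70 to 2.54 and Rsad2 from −0.41 to 2.32. On the 4 arrays alone 11 cell cycle and 4 housekeeping genes were higher and 4 endoderm genes lower, and with the block 4, 3 and 4, with 9 interferon-induced genes higher. Detected-probe scaling gave 4 housekeeping genes higher and 1 lower, quantile normalization 5 and 1. The calls of Il7r with normexp (0.99), Stab1 with quantile normalization (1.18) and Maf on the yolk sac slide alone ended. Normexp lowered the medians of macrophage (3.56), chemokine (1.58), antigen presentation (1.85) and granule (1.45) genes. The causes were not tested. Normexp with an offset of 50 also shrank differences of dim genes, Ptprc from 8.34 to 5.56. Values near background limit every fold against a gate where a gene was not well above it.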

Other observations

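Probes without a RefSeq symbol were tested with the named genes. Of 8047 such features tested 17.6% were higher and 8.86% lower in CD45+ cells, against 25.0% and 19.1% of 16531 named genes, and this difference between the sets was not tested. Among unnamed features measured in both gates, the 3 largest rises were read by probes close together on chromosome 1 of mm9. A pair of these probes overlap in position and were designed for long intergenic transcripts. The first, at 175655106 to 175655165, stood at −2.71 and −2.57 on the CD45- arrays and 6.15 and 6.42 on the CD45+ arrays. The second, at 175655065 to 175655124, stood at −2.72 and −2.65 and 6.10 and 6.32. A probe for an Ensembl transcript at 175711138 to 175711197 stood at −2.82 and −2.25 on the CD45- and 4.78 and 4.65 on the CD45+ arrays. All 3 were higher on both CD45+ arrays than on either CD45- array, and their differences were 8.92 ± 0.32, 8.90 ± 0.22 and 7.25 ± 0.34 (limma adjusted p = 1.74e-08, 2.34e-09 and 1.11e-07).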
